A study of Mus musculus with 8 samples.

Results

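RGS proteins, the regulators of G protein signaling, shorten the signal of G protein-coupled receptors: they speed up the hydrolysis of GTP by the G alpha subunit, which then re-joins beta and gamma and falls silent. The GRKs, of which GRK2, GRK3 and GRK6 were deleted in this study, act on the same pathway at an earlier step. They phosphorylate the active receptor so that arrestins bind and uncouple it, and GRKs such as GRK2 and GRK3 carry an RGS homology domain. In dendritic cells (DCs) and other leukocytes, RGS proteins limit the response to chemokines. The genes described here are a named set of 9 RGS genes among the 47937 genes of the count tables: *Rgs1*, *Rgs2*, *Rgs3*, *Rgs16* and *Rgs18* of the R4 subfamily, most of which are small proteins with little beyond the RGS domain, *Rgs3* with its long isoforms being an exception, *Rgs10*, *Rgs12* and *Rgs14* of the R12 subfamily, and *Rgs19* of the RZ subfamily. All 9 were found in both tables.

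RNA was sequenced from bone marrow-derived dendritic cells (BMDCs), which grow out of mouse bone marrow over 8 days in medium with the growth factor GM-CSF. Cells of 2 genotypes, WT and Grk 3xKO (3xGrk-/-), were left untreated or received 20 ng/ml LPS, a bacterial cell wall component that matures DCs, for 24 h, with 2 libraries for each of the 4 groups. Per the study, 3xGrk-/- BMDCs came from marrow in which Vav-iCre, a Cre that is active from early blood-forming precursors on, removed the floxed alleles Grk2 fl/fl and Grk6 fl/fl, and which was Grk3-/- throughout, while WT controls carried no Cre. All mice were adult, older than 8 weeks, and on a C57BL6/J background. The methods describe technical triplicates and nothing states that the 2 libraries of a group are separate cultures or animals, so p-values measure only the spread between these libraries. A culture is a mixture of cells, and in such bulk RNA fewer cells of a type and less RNA per cell cannot be told apart.

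The total count on genes was 4713305 in the shallowest and 6933358 in the deepest library. The mean chi-square per gene between the libraries of a group was highest in LPS-stimulated 3xGrk-/- cells, at 9.02 against 1.59 to 3.07 elsewhere, but by the median ratio over genes the LPS-stimulated WT pair differed more (1.92 against 1.3). Replicate 2 of LPS-stimulated 3xGrk-/- cells stood apart by 149727 reads of *Gm42418*, which overlaps ribosomal RNA, where no other library had more than 41199. Leaving out either library of LPS-stimulated 3xGrk-/- cells lowered the number of genes called by genotype with LPS and in the interaction. It also ended the call of *Rgs2* by genotype, at a log2 fold change of -0.28 without replicate 1 and -0.3 without replicate 2. The drop was thus not particular to replicate 2. The deleted genes were looked at first, as a check of the labels. The libraries of the genotypes did not overlap for *Grk2*, *Grk6* or *Grk3*, with log2 fold changes of -1.11, -1.19 and -0.36 in unstimulated and -1.89, -1.54 and -0.42 in LPS-stimulated cells. All 3 genes kept reads in 3xGrk-/- cells, and *Grk3*, although Grk3-/- per the study, still had 1786 and 1514 reads there without LPS, against 1767 and 2431 in WT. These are counts over whole genes, in which exons outside a deleted part still count. They check at most the direction of the labels, not how complete the loss was. *Grk5*, which was not deleted, was also lower, by log2 -0.24 without LPS (edgeR adjusted p = 0.124) and -0.76 with LPS (edgeR adjusted p = 5.45e-05). The genotypes did not overlap for 69.2% of all genes tested without and 72.6% with LPS, so the smaller fall of *Grk3* says little about the labels. Markers of other cells moved with genotype. The 15 conventional DC genes summed to 29140 and 29250 CPM (counts scaled to a common library size) in unstimulated WT and 16450 and 16680 in unstimulated 3xGrk-/- libraries, and with LPS to 23750 and 25920 in WT and 18010 and 17620 in 3xGrk-/-. Of these 15, 4 were higher and 10 lower in 3xGrk-/- cells without LPS, and 2 higher and 13 lower with LPS. The 16 macrophage and monocyte genes summed to between 4682 and 4734 CPM in WT and between 14220 and 14300 in 3xGrk-/- without LPS, and to at most 1699 and at least 16090 with LPS. *Lyz2* made up much of this sum in unstimulated 3xGrk-/- libraries, with 7055 and 7079 CPM, against 1303 and 1351 in unstimulated WT. Of the 15 genes tested, 10 were higher and 4 lower in 3xGrk-/- cells without LPS, the lower ones being *C1qa*, *C1qb*, *C1qc* and *Fcgr1*, and 15 were higher with LPS. *Cd163* was the only one of these 16 with a count of 0 throughout a group. The 7 eosinophil genes, by contrast, summed to at least 1077 CPM in every WT and at most 68.39 in every 3xGrk-/- library, and the 12 lymphocyte genes to at most 5.718 CPM anywhere. With LPS, the 13 neutrophil genes summed to 371.6 and 429.6 CPM in WT and 553 and 573.6 in 3xGrk-/- libraries, although 9 of the 12 tested were lower and 1 higher, and the 9 mast cell and basophil genes to 97.44 and 101.9 CPM in WT and 289.6 and 295.4 in 3xGrk-/-, with 3 of 6 tested lower and 1 higher. The part of these cells in the RGS results was not tested.

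Of the 9 genes, 3 lie side by side. *Rgs2*, *Rgs13*, *Rgs1*, *Rgs21* and *Rgs18* follow each other on the minus strand of chromosome 1 (chr1:143999338-144775435, GRCm38, a span of 776 kb), with no other protein-coding gene between them. *Rgs13* and *Rgs21* had a count of 0 in all 8 libraries. *Rgs16* lies elsewhere on the same chromosome (chr1:153740349-153745468), *Rgs3* at chr4:62559847-62704001, *Rgs12* at chr5:34949445-35039644, *Rgs10* at chr7:128373621-128418758, *Rgs14* at chr13:55369732-55384687 and *Rgs19* at chr2:181688419-181693977. Exons of *Rgs16* and *Rgs12* overlap those of the antisense genes *Gm28513* and *Gm43791* by 236 and 467 bases, and the strand setting of the counting is not given in the sources used here, so their reads may include some of the other strand.

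RefSeq (GRCm38.p6) gave the bases before 10 transcription starts of 6 of the 9 genes, all but *Rgs1*, *Rgs14* and *Rgs18*. The 250 bases before the start are shown for 3 genes with unlike measurements: *Rgs2*, a chromosome 1 neighbour of *Rgs1* with small differences in every comparison, *Rgs16*, the gene that was nearly silent in WT, and *Rgs12*, which has 2 starts and was lower in LPS-stimulated 3xGrk-/- cells. Capitals mark matches on either strand to TGACG (the cAMP response element in its short form), TGANTCA (AP-1) or GAGGAAG (PU.1).
Rgs2, minus strand of chr1:144004150-144004399: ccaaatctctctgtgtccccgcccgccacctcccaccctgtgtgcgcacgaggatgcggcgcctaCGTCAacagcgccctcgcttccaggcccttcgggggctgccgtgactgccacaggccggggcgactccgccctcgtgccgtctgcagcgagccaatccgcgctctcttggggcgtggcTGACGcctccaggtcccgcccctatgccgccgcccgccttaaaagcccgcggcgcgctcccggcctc
Rgs16, plus strand of chr1:153740103-153740352: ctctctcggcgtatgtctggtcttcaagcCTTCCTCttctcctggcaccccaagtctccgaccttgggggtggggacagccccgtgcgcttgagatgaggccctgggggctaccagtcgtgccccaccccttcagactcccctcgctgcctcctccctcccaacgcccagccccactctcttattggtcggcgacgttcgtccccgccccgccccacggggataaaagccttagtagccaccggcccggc
Rgs12, upstream start, plus strand of chr5:34949198-34949447: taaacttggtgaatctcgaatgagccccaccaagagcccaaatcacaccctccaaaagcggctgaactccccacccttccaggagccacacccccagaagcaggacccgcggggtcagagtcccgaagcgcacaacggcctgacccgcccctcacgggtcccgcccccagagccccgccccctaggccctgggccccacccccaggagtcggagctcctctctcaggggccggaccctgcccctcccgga
Rgs12, downstream start, plus strand of chr5:34998828-34999077: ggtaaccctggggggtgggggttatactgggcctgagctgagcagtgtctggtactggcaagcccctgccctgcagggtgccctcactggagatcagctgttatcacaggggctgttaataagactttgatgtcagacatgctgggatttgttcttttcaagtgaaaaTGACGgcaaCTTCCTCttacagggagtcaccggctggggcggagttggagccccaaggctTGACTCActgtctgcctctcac

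Base composition set these windows apart. The *Rgs2* window was 72.4% G or C with 30 CpG dinucleotides, the *Rgs16* window 66.4% with 17, and the windows of the 2 *Rgs12* starts 68.4% with 14 and 55.6% with 3. The median over 32851 RefSeq windows of this length was 52.4% with 6 CpG. The *Rgs2* window held TGACG at 67 and at 185 bases before the start, the *Rgs16* window GAGGAAG at 221, and the downstream *Rgs12* window TGACG at 82, GAGGAAG at 73 and TGANTCA at 22, while the upstream *Rgs12* window held none of the motifs searched. Over all 32851 windows, TGACG was present in 17.8%, TGANTCA in 6.75% and GAGGAAG in 10.6%. The other motifs searched on both strands were TGACGTCA, the full cAMP response element, of which the short form is a part and which was present in 1.55% of the windows, TATAAA, present in 12.4%, and those of NF-kB and of the interferon response, present in 1.21% and 2.98%. Among the 10 windows of the RGS genes, TATAAA was met in both *Rgs3* windows and GAGGAAG in all 3 *Rgs19* windows, in 2 of which, since they overlap, it is the same site. A match is a run of letters in a window, and no binding was measured.

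Levels can be compared between genes only per length. In TPM (read counts divided by transcript length and scaled to 1 total in every library), computed here with the length of the principal transcript, *Rgs10* was the most abundant of the 9 in unstimulated WT BMDCs at 344.6 ± 2.75 TPM (SD, n = 2). *Rgs10* is a small RGS protein that acts on Gi and is known from macrophages and microglia. *Rgs19*, whose protein also acts on Gi, followed at 149.2 ± 3.25 TPM, then *Rgs14* at 66.21 ± 0.164 and *Rgs1* at 45.38 ± 1.07. The other genes were lower: *Rgs2* reached 33.12 ± 0.936, *Rgs12* 32.44 ± 0.0367, *Rgs3* 27.75 ± 1.43 and *Rgs18* 23.68 ± 0.361 TPM, and *Rgs16* was at 0.2266 ± 0.0604. *Rgs2* and *Rgs12* did not differ beyond their spread. With the union of all exons as the length, the order of the middle genes changed, *Rgs2* at a mean of 42.1 TPM then standing above *Rgs1* at 38.3, and *Rgs18* at 36.2 above *Rgs12* at 31.9 and *Rgs3* at 15.3.

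Summed per length, the set of 9 was highest in unstimulated WT and lowest in LPS-stimulated 3xGrk-/- cells. The sum was 720 and 726 TPM in the unstimulated WT libraries, 633 and 643 in unstimulated 3xGrk-/-, 575 and 528 in LPS-stimulated WT and 399 and 374 in LPS-stimulated 3xGrk-/- libraries. No groups overlapped. The direction of the LPS response of the sum in WT depended on the scale: without division by length it was 564.7 and 565.4 CPM before and 677.2 and 644.3 CPM after LPS. TPM give more weight to the short transcript of *Rgs10*. They are also scaled to the library total, without the TMM correction of library size that CPM carry. Scaling by library size alone moved the median LPS change of all genes in WT by -0.21 (log2). The parts of length and scaling were not told apart. In 3xGrk-/- cells the sum was lower after LPS on both scales, with 533.6 and 536.1 CPM before and 464.9 and 472 CPM after. *Rgs10* made up 47.7% of the sum in unstimulated WT and 29.3% in LPS-stimulated WT cells, while the share of *Rgs1* went from 6.28% to 33.5%. After LPS, *Rgs1* at 185.1 ± 17.3 TPM stood above *Rgs10* at 161.4 ± 8.63 TPM in WT, although the gap was about as large as the spread. In LPS-stimulated 3xGrk-/- cells *Rgs10* at 127.9 ± 6.19 TPM stayed above *Rgs1* at 109.2 ± 3.63. *Rgs18* was at 5.866 ± 1.32 TPM in WT and 1.525 ± 0.233 in 3xGrk-/- cells after LPS, below *Rgs3* at 12.94 ± 2.73 and 6.17 ± 0.194 TPM. With the union of exons as the length the order of these genes in WT turned, *Rgs18* at a mean of 8.88 TPM and *Rgs3* at 7.05.

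**Figure D1:**
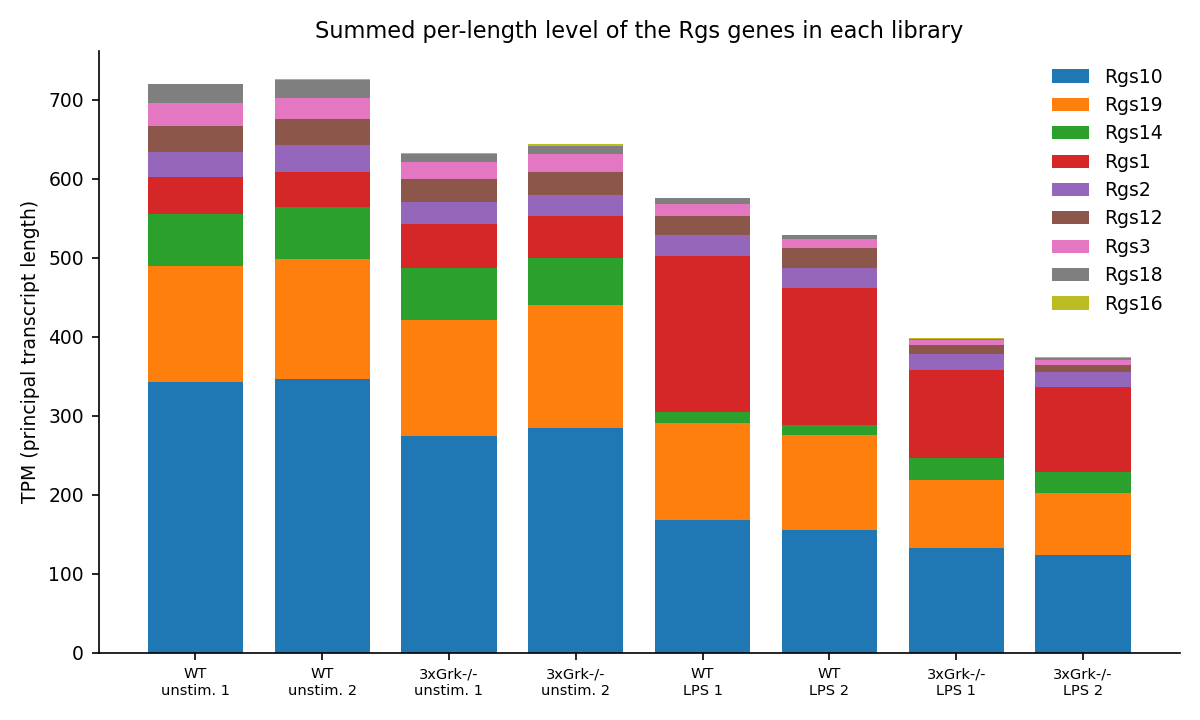
Stacked bars give the TPM (principal transcript length) of the 9 Rgs genes in each of the 8 libraries, 2 per group. The bars fall from 720 and 726 TPM in unstimulated WT to 399 and 374 TPM in LPS-stimulated 3xGrk-/- libraries, and Rgs1 takes the largest segment of both LPS-stimulated WT bars.

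The first comparison asked which RGS genes respond to LPS in WT cells. *Rgs1* rose and 5 genes fell, *Rgs3*, *Rgs18*, *Rgs10*, *Rgs12* and *Rgs14*, while *Rgs2*, *Rgs16* and *Rgs19* did not pass the test. A gene was called where edgeR's quasi-likelihood test, after Benjamini-Hochberg adjustment across the whole table, gave an adjusted p below 0.05. By that rule 60.3% of the 12541 genes tested were called, 29.5% higher and 30.8% lower. The median log2 fold change of the 9 RGS genes was -0.23, that of all genes tested -0.01. For 8 of the 9, all but *Rgs16*, the libraries with and without LPS did not overlap, as for 78.3% of the genes tested.

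*Rgs1* is a brake on chemokine receptor signals of lymphocytes and other leukocytes. Scaled CPM of *Rgs1* were 78.52 and 76.05 in unstimulated WT and 367.8 and 337.7 in LPS-stimulated WT libraries. The groups lay far apart, and the rise was 4.56-fold (log2 2.19, SE 0.0619, edgeR adjusted p = 7.5e-22). *Rgs14*, a scaffold that joins an RGS domain to Ras-binding domains and a GoLoco motif, went the other way, from 68.99 and 69.34 CPM to 16.48 and 15.91 CPM. It was 4.28-fold lower after LPS (log2 -2.10, SE 0.108, edgeR adjusted p = 6.3e-16). The groups did not overlap. *Rgs18*, a regulator best known from platelets, was at 21.54 and 21.11 CPM without and at 6.701 and 5.096 CPM with LPS. Its log2 fold change of -1.86 (SE 0.178, edgeR adjusted p = 4.04e-10) was the second largest fall.

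*Rgs3* and *Rgs10* fell to about the same degree. *Rgs3* acts on Gi and Gq and went from 49.55 and 46.13 to 28.07 and 21.78 CPM (log2 -0.95, SE 0.114, edgeR adjusted p = 3.84e-08). *Rgs10* went from 133.6 and 135.3 to 71.54 and 69.5 CPM (log2 -0.93, SE 0.0695, edgeR adjusted p = 2.39e-12). *Rgs12*, which shares the domains of *Rgs14* and adds a PDZ domain, was at 78.71 in both unstimulated WT libraries and at 63.93 and 70.27 CPM after LPS, a log2 fold change of -0.23 (edgeR adjusted p = 0.0153). That call was lost in DESeq2 (adjusted p = 0.113) and without unstimulated WT replicate 1 (0.0504), unstimulated WT replicate 2 (0.0731) or LPS-stimulated WT replicate 1 (0.131). *Rgs2*, which prefers Gq, had a log2 fold change of -0.17 (SE 0.0972, edgeR adjusted p = 0.124), and *Rgs19* one of -0.13 (edgeR adjusted p = 0.108). Scaling by library size alone, which lowers the median of all genes by 0.21, called both of these lower, and *Rgs19* was also called lower with at least 10 counts in every library (log2 -0.17, adjusted p = 0.0418).

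In 3xGrk-/- cells, LPS raised *Rgs1* and lowered 7 genes: all others but *Rgs16*. Among the 12541 genes tested, 55.4% were called, 28.0% higher and 27.4% lower, and 77.6% had libraries that did not overlap, as had the 8 called RGS genes. The median over the 9 RGS genes was -0.88 on the log2 scale, against -0.01 over all genes tested. *Rgs1* went from 96.75 and 93.77 to 225.6 and 231.8 CPM, a rise of 2.40-fold (log2 1.26, SE 0.0617, edgeR adjusted p = 2.23e-16). *Rgs18* was 5.67-fold lower, with 9.257 and 10.4 CPM before and 1.452 and 1.942 after LPS (log2 -2.50, SE 0.283, edgeR adjusted p = 1.29e-08). The latter values rest on 8 and 12 reads. *Rgs3* fell by 1.56 (log2), *Rgs12* by 1.18, *Rgs14* by 0.94, *Rgs10* by 0.88, and *Rgs19* by 0.63 (edgeR adjusted p = 2.96e-08 for *Rgs19*, lower for the other 4).

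The fall of *Rgs2* in these cells was small. CPM went from 39.42 and 37.09 to 31.76 and 32.21, a log2 fold change of -0.26 (SE 0.104, edgeR adjusted p = 0.035). The groups did not overlap, but the call was lost in DESeq2 (adjusted p = 0.184) and without any 1 of 6 libraries: replicate 1 or 2 of unstimulated 3xGrk-/- (0.204 and 0.0544), of LPS-stimulated 3xGrk-/- (0.121 and 0.104) or of unstimulated WT (0.0552 and 0.0551). Both LPS responses come from 1 fit of all 8 libraries.

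**Figure D2:**
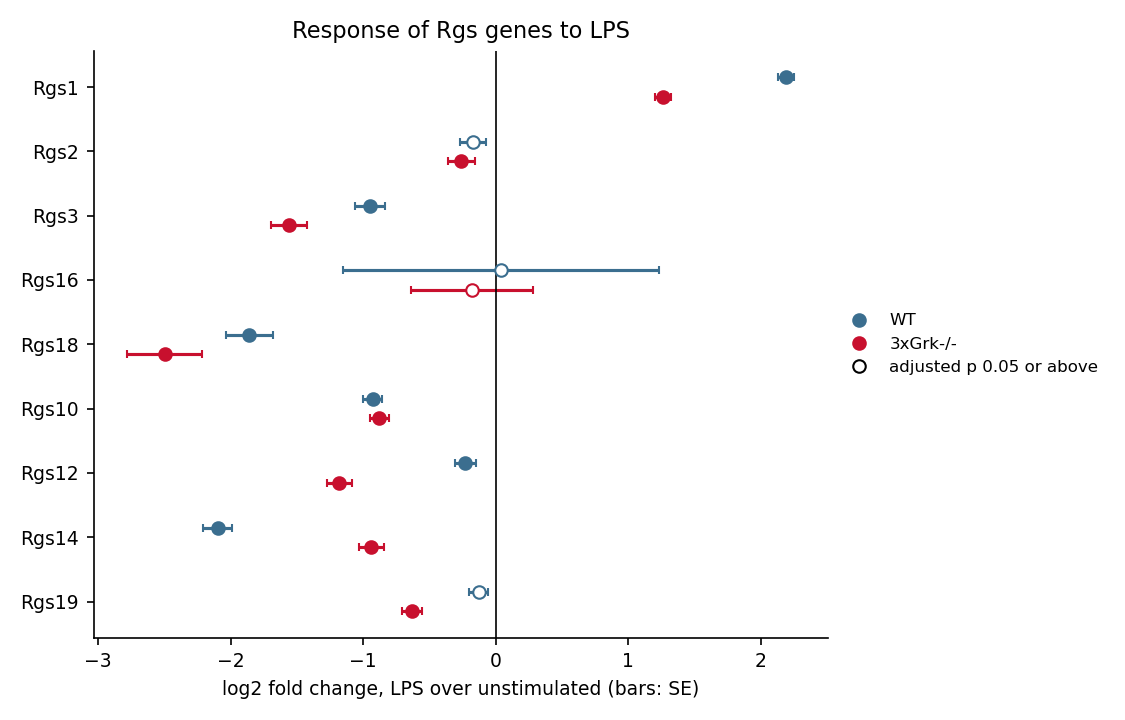
Points give the log2 fold change of each Rgs gene, LPS over unstimulated, in WT (blue) and 3xGrk-/- (red) cells, with bars for the SE and open points for an adjusted p of 0.05 or above. Rgs1 lies to the right at 2.19 in WT and 1.26 in 3xGrk-/-, and Rgs12 and Rgs19 lie further left in 3xGrk-/- than in WT.

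Without LPS, few RGS genes differed much between the genotypes. *Rgs1* was higher in 3xGrk-/- cells and *Rgs3*, *Rgs18* and *Rgs10* were lower, while *Rgs2*, *Rgs12*, *Rgs14* and *Rgs19* did not pass the test and *Rgs16* was under the filter on low counts. Of the 12000 genes tested here, 44.7% were called, 22.1% higher and 22.7% lower, so 4 of 8 RGS genes tested is close to the share of all genes. The median log2 fold change was -0.16 over the 8 and 0 over all genes. Among the 8 tested, *Rgs18* differed most, with a log2 fold change of -1.12 (SE 0.16, edgeR adjusted p = 1.92e-11). The library values, 21.54 and 21.11 CPM in WT against 9.257 and 10.4 in 3xGrk-/-, did not overlap.

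Markers of platelets, where *Rgs18* is abundant, moved in both directions, and their part in its difference was not tested. The 10 megakaryocyte and platelet genes summed to 42.88 and 46.41 CPM in unstimulated WT and to 338.5 and 327.4 CPM in unstimulated 3xGrk-/- libraries. Most of the sum in 3xGrk-/- cells was *Pf4*, at 6.671 and 8.668 CPM in WT and 264.1 and 249.4 in 3xGrk-/-, a gene that monocytes also express. *Itga2b*, an integrin of platelets, was lower in 3xGrk-/- cells like *Rgs18*, with 7.167 and 6.066 CPM against 23.44 and 26 (log2 -1.90, edgeR adjusted p = 3.98e-28). It had the highest CPM of the 10 in unstimulated WT, but per length *Pf4* stood above it, at a mean of 29.41 against 16.22 TPM. Of the 10 genes, 7 in WT and 5 in 3xGrk-/- cells had at most 3 reads in each library. Of the 3 genes tested, 2 were higher and 1 was lower.

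*Rgs1* was at 78.52 and 76.05 CPM in WT and 96.75 and 93.77 CPM in 3xGrk-/- cells. The groups did not overlap, and the difference was 1.24-fold (log2 0.30, SE 0.0698, edgeR adjusted p = 5.29e-05). *Rgs10* was lower by a similar amount, at 110.5 and 115.4 CPM in 3xGrk-/- against 133.6 and 135.3 in WT (log2 -0.25, SE 0.0589, edgeR adjusted p = 6.14e-05). *Rgs3*, at 38.07 and 39.52 against 49.55 and 46.13 CPM, had a log2 fold change of -0.30 (SE 0.0956, edgeR adjusted p = 0.00538). The call of *Rgs3* was lost in DESeq2 (adjusted p = 0.158), without WT replicate 1 (0.066) and without 3xGrk-/- replicate 1 (0.068). With the biological coefficient of variation set at 0.1 instead of the 0.0306 of these libraries, the adjusted p of *Rgs1*, *Rgs10* and *Rgs3* were 0.168, 0.259 and 0.211.

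The other 4 genes tested did not pass. *Rgs2* was at 43.45 and 45.3 CPM in WT and 39.42 and 37.09 in 3xGrk-/- (log2 -0.22, SE 0.0976, edgeR adjusted p = 0.0583), and it was called lower with library size scaling (0.0059) or with at least 10 counts in every library (0.048). *Rgs12* had a log2 fold change of -0.10, which library size scaling turned into a call (-0.19, adjusted p = 0.0249), and *Rgs19* one of 0.07 that turned to -0.02 with library size scaling (edgeR adjusted p = 0.254 and 0.444). *Rgs14* was the only gene of the set whose genotypes overlapped, with 68.99 and 69.34 CPM in WT and 70.92 and 65.69 in 3xGrk-/- cells. Over all genes tested, the genotypes did not overlap for 69.2%.

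**Figure D3:**
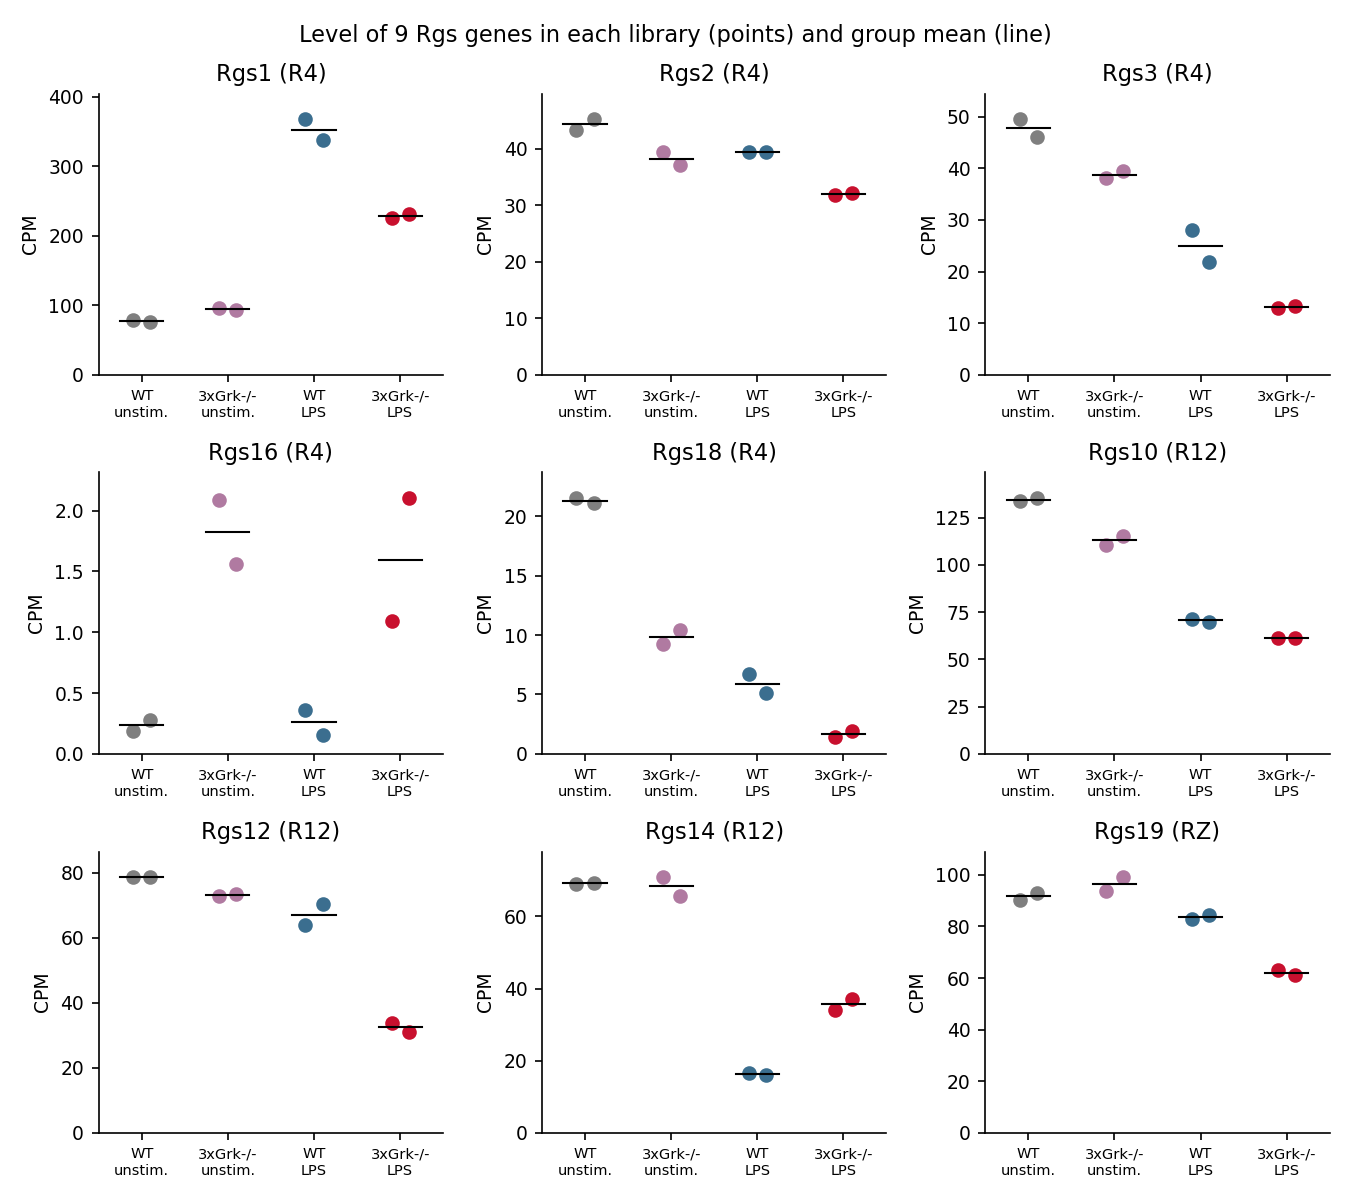
Each panel shows the CPM of 1 Rgs gene in the 4 groups, with a point for each of the 2 libraries and a line for the group mean, on a linear axis that starts at 0. Rgs14 sits at a mean of 69.17 and 68.31 CPM in unstimulated WT and 3xGrk-/- cells and at 16.19 and 35.59 CPM after LPS, and Rgs12 is lowest in LPS-stimulated 3xGrk-/- cells, at 33.94 and 30.91 CPM.

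After LPS, the genotypes differed at more RGS genes and by more. *Rgs14* was higher in 3xGrk-/- cells and 6 genes were lower, *Rgs18*, *Rgs12*, *Rgs3*, *Rgs1*, *Rgs19* and *Rgs2*, out of 8 tested. Of the 11830 genes tested, 48.6% were called, 24.7% higher and 24% lower. The median log2 fold change was -0.53 over the 8 RGS genes and -0.01 over all genes. All 9 genes had libraries that did not overlap between the genotypes, as had 72.6% of the genes tested.

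*Rgs14* and *Rgs12*, which encode the proteins of the set with a GoLoco motif, moved apart. LPS-stimulated libraries had 16.48 and 15.91 CPM of *Rgs14* in WT and 34.12 and 37.06 CPM in 3xGrk-/-. The log2 fold change was 1.14 (SE 0.13, edgeR adjusted p = 2.62e-07). For *Rgs12* the values were 63.93 and 70.27 CPM in WT and 33.94 and 30.91 CPM in 3xGrk-/-, a log2 fold change of -1.05 (SE 0.104, edgeR adjusted p = 2.96e-08). In both genes the gap between genotypes was far wider than that between the libraries of a group.

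*Rgs1* lay lower in 3xGrk-/- than in WT cells after LPS, opposite to its direction without LPS. The values of 367.8 and 337.7 CPM in WT and 225.6 and 231.8 in 3xGrk-/- gave a log2 fold change of -0.63 (SE 0.0642, edgeR adjusted p = 5.22e-08). *Rgs3* was at 28.07 and 21.78 CPM in WT and 12.88 and 13.27 in 3xGrk-/- (log2 -0.92, SE 0.162, edgeR adjusted p = 7.2e-05). *Rgs18* again showed the lowest ratio of the 8, with 6.701 and 5.096 against 1.452 and 1.942 CPM (log2 -1.76, SE 0.344, edgeR adjusted p = 0.000208). These values rest on 37 and 33 reads in WT and 8 and 12 in 3xGrk-/-. *Rgs18* met the filter on low counts through the WT libraries, where it is high. Tested without the filter, it had a log2 fold change of -1.74 (edgeR adjusted p = 1.55e-06). *Rgs19* was lower by a smaller amount, at 82.77 and 84.48 CPM in WT and 62.97 and 61.18 in 3xGrk-/- (log2 -0.43, SE 0.0864, edgeR adjusted p = 0.000284).

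The call of *Rgs2* was weak. CPM were 39.48 and 39.38 in WT and 31.76 and 32.21 in 3xGrk-/-, and the log2 fold change was -0.30 (SE 0.108, edgeR adjusted p = 0.0261). DESeq2 gave an adjusted p of 0.225, and without WT replicate 2, 3xGrk-/- replicate 1 or 3xGrk-/- replicate 2 the edgeR values were 0.0553, 0.149 and 0.137. *Rgs10* missed the threshold at a log2 fold change of -0.20 (SE 0.0899, edgeR adjusted p = 0.0713) but was called lower with library size scaling (0.0118) and when all 8 libraries were fitted together (0.0334).

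*Rgs16*, an R4 protein that acts on Gi and Gq, was the only gene of the set that was nearly silent in WT. It had 1 and 2 reads in unstimulated and 2 and 1 reads in LPS-stimulated WT libraries, against 14 and 9 reads in unstimulated and 6 and 13 in LPS-stimulated 3xGrk-/- libraries. The genotypes did not overlap under either condition. From the summed reads the ratio of 3xGrk-/- to WT was 7.62 without LPS (95% exact interval 2.3 to 39.7) and 6.5 with LPS (1.91 to 34.3), intervals that cover counting error only. The gene was under the filter on low counts in both genotype fits. Tested without the filter, it had an edgeR adjusted p of 0.000252 without and 0.00365 with LPS. Its responses to LPS did not pass: the log2 fold change was 0.04 in WT (edgeR adjusted p = 0.977, and -0.16 with library size scaling) and -0.18 in 3xGrk-/- cells (0.76). A change was not detectable at this depth in WT, where the interval of the ratio of summed reads reached from 0.138 to 7.72.

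**Figure D4:**
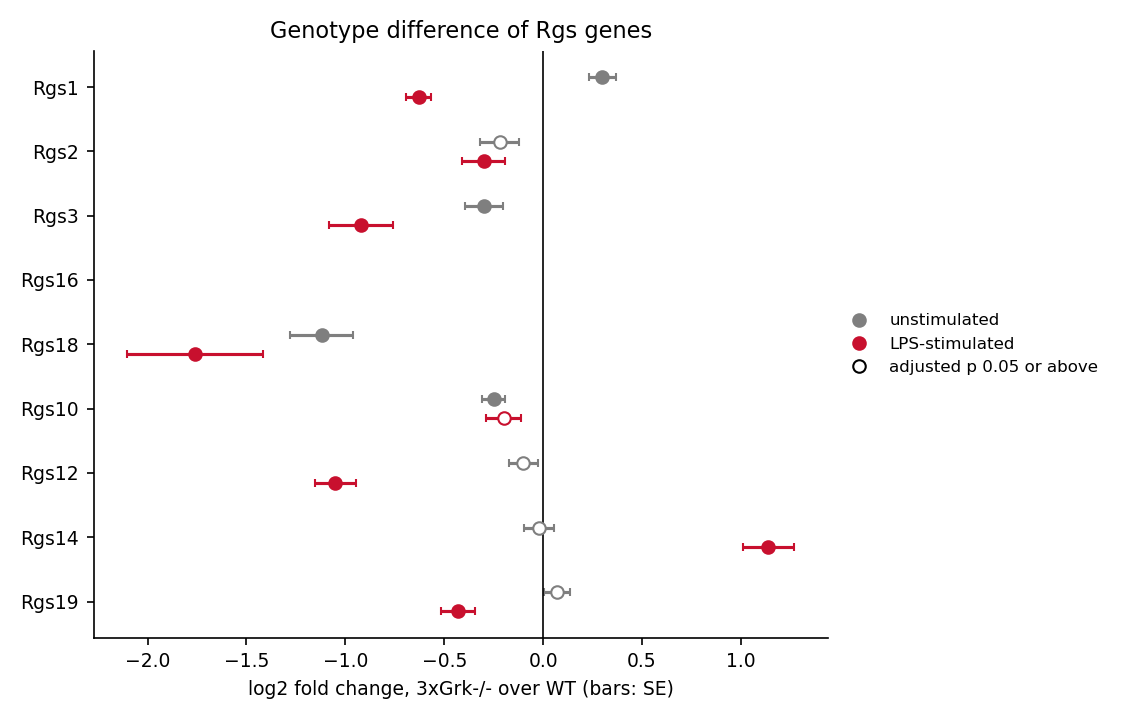
Points give the log2 fold change of each Rgs gene, 3xGrk-/- over WT, without LPS (grey) and with LPS (red), with bars for the SE and open points for an adjusted p of 0.05 or above. Rgs16 was under the filter and has no point. Rgs1 crosses from 0.30 without to -0.63 with LPS, and Rgs14 from -0.02 to 1.14.

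Whether the genotype difference changed with LPS was tested as an interaction over all 8 libraries, which is the same as asking whether the LPS response differed between genotypes. It did for 5 of the 9 genes, *Rgs1*, *Rgs12*, *Rgs3* and *Rgs19* in the negative and *Rgs14* in the positive direction, where 32.5% of the 12541 genes tested passed, 16.5% upward and 16.0% downward. The interaction was largest for *Rgs14*, whose genotype difference was higher with LPS by 1.16 on the log2 scale (SE 0.148, edgeR adjusted p = 3.73e-07). LPS lowered it 4.28-fold in WT but 1.92-fold in 3xGrk-/- cells. For *Rgs12* the interaction was -0.95 (SE 0.122, edgeR adjusted p = 4.16e-07): LPS lowered it by log2 -0.23 in WT and by -1.18 in 3xGrk-/- cells.

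For *Rgs1* the interaction was -0.93 (SE 0.0883, edgeR adjusted p = 1.84e-09), with a 4.56-fold rise in WT and a 2.40-fold rise in 3xGrk-/- cells. *Rgs19* had an interaction of -0.50 (SE 0.103, edgeR adjusted p = 0.00035) and *Rgs3* one of -0.62 (SE 0.183, edgeR adjusted p = 0.00952). The call of *Rgs3* was lost in DESeq2 (adjusted p = 0.0751) and without LPS-stimulated WT replicate 1 (-0.44, 0.0808). *Rgs2* and *Rgs10* had interactions of -0.09 and 0.05 (edgeR adjusted p = 0.698 and 0.738). *Rgs18*, the gene with the lowest ratio between genotypes under both conditions, had one of -0.64, which did not pass (SE 0.377, edgeR adjusted p = 0.203). The macrophage and monocyte list moved in the same test: 15 of its 15 tested genes had a called positive interaction.

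The neighbours on chromosome 1 responded differently. Their log2 fold changes after LPS in WT cells were 2.19 for *Rgs1*, -0.17 for *Rgs2*, which did not pass the test, and -1.86 for *Rgs18*. Between genotypes without LPS the same 3 genes had log2 fold changes of 0.30, -0.22 and -1.12, and with LPS of -0.63, -0.30 and -1.76.

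Other genes of the pathway were taken from lists. The 12 other RGS genes were almost silent, with 8 to 10 of them at a count of 0 in each group and summed levels of at most 7.8 CPM. Only *Rgs11* passed the filter on low counts without LPS. *Rgs11*, an R7 gene known from the retina, had 10 and 12 reads in WT and 47 and 42 in 3xGrk-/- libraries (3.99-fold, SE 0.308 on the log2 scale, edgeR adjusted p = 5.24e-10), and after LPS 3 and 1 against 3 and 11 reads. Of 19 genes for other proteins with an RGS homology domain, for GoLoco proteins and for RGS-binding partners, 15 were tested without LPS, 4 higher and 3 lower in 3xGrk-/- cells, where 44.7% of all genes tested were called, and 16 with LPS, 1 higher and 3 lower, where 48.6% were called. Their median log2 fold changes were 0.01 and -0.01.

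*Gpsm2*, which binds Gi through its GoLoco motifs, was higher in 3xGrk-/- cells without LPS (log2 1.23, edgeR adjusted p = 4.27e-08) and with LPS (log2 1.29, edgeR adjusted p = 0.000626). *Rap1gap* was lower, by log2 -1.33 (edgeR adjusted p = 3.24e-11) and -0.89 (edgeR adjusted p = 0.0101), the second of which was lost in DESeq2 (adjusted p = 0.129), without WT replicate 2 (0.127) and without 3xGrk-/- replicate 1 (0.104). *Rgs7bp*, a membrane anchor of R7 proteins, was also lower, by log2 -0.71 without and -1.79 with LPS (edgeR adjusted p = 0.000869 and 0.0327). Both calls of *Rgs7bp* were lost in DESeq2 (adjusted p = 0.0963 and 0.523). With LPS it passed the filter on low counts only through the WT libraries, at 10 and 12 reads, where it is high, so that call is no support. LPS-stimulated 3xGrk-/- libraries held 6 and 0 of its reads, and the call with LPS was lost without either WT replicate (0.0708 and 0.127) or without 3xGrk-/- replicate 2 (-0.73, 0.512).

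The G alpha subunits include the substrates of RGS proteins. Of the 8 tested among 13, 4 were higher and none lower in unstimulated 3xGrk-/- cells, and 2 were higher and 1 lower with LPS, against 44.7% and 48.6% of all genes called in either direction. The medians were 0.19 and 0.13 on the log2 scale. Without LPS these were *Gnaq* (0.32), *Gna13* (0.26), *Gnai2* (0.22) and *Gnai3* (0.20). *Gnai3*, a Gi subunit, turned with LPS like *Rgs1*: it had 352 and 358.3 CPM in unstimulated WT, 397 and 418.9 in unstimulated 3xGrk-/-, 651.3 and 599.2 in LPS-stimulated WT and 371.3 and 405.9 CPM in LPS-stimulated 3xGrk-/- libraries. Its log2 fold change with LPS was -0.69 (edgeR adjusted p = 1.52e-08) and its interaction -0.88 (edgeR adjusted p = 4.97e-10). *Gna15*, a Gq class subunit of blood cells, was higher with LPS (log2 0.92, edgeR adjusted p = 0.0073), a call that was lost in DESeq2 (adjusted p = 0.107), without WT replicate 2 (0.0522) and without 3xGrk-/- replicate 1 (0.075).

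**Figure D5:**
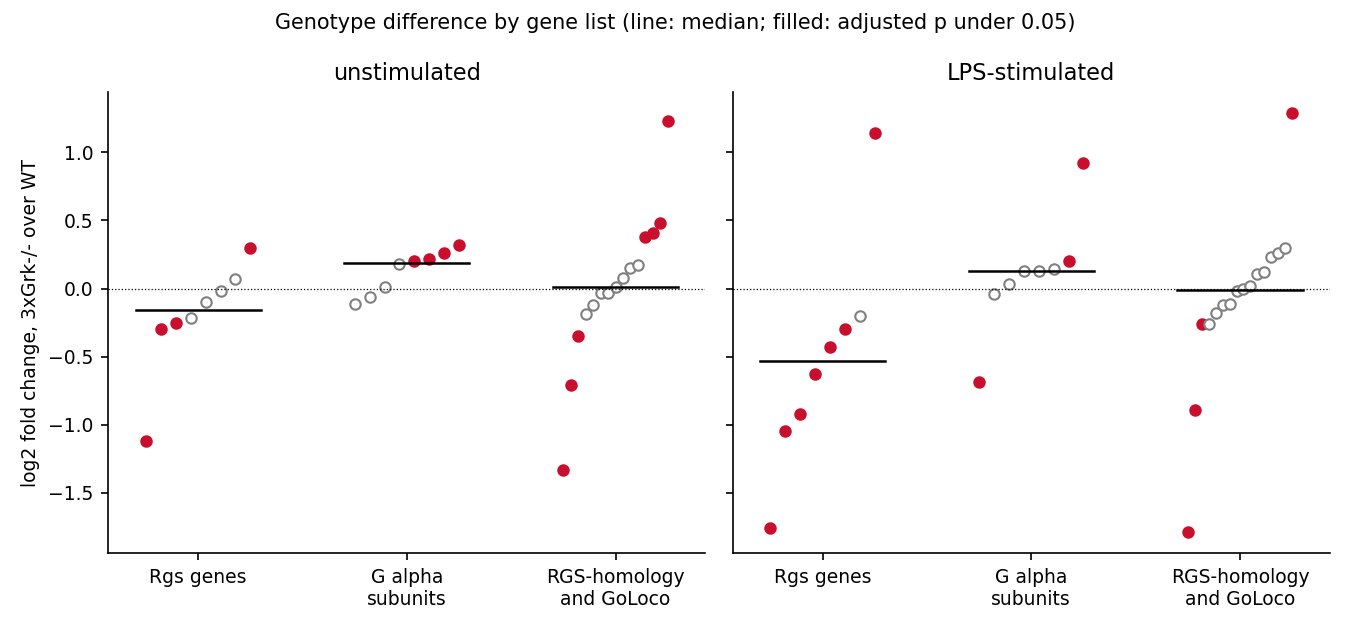
Points give the log2 fold change, 3xGrk-/- over WT, of each tested gene of 3 lists (RGS members, G alpha subunits, RGS-homology and GoLoco proteins), without LPS on the left and with LPS on the right, with a line at the list's median and filled points for an adjusted p under 0.05. The median of the RGS members lies at -0.16 and -0.53, that of the G alpha subunits at 0.19 and 0.13.

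For each RGS gene, the genes whose pattern over the 8 libraries was most like it were found among 9098 genes with a mean log2 CPM of at least 3, by the root mean square difference of the centred log2 CPM, where 0 is the same pattern. *Rgs1* was nearest to *Rnf180* (0.0589) and to *Htr7* (0.0958), a serotonin receptor gene, where the median over all genes was 0.918. *Rgs14* was nearest to *Speg* (0.0597) and *Slc43a2* (0.0757), against a median of 0.902. *Rgs12* was nearest to *Sh3bp1* (0.0412) and *Susd3* (0.0558), *Rgs19* to *Cs* (0.0594) and *Bcor* (0.0675), *Rgs3* to *E330020D12Rik* (0.112) and *Glipr1* (0.132), and *Rgs10* to *Zfp710* (0.0429) and *Slc25a5* (0.0538). *Rgs2*, which varied least, had *Afdn* (0.0408) and *Rbbp4* (0.0411) nearest, against a low median of 0.323. *Rgs18* was nearest to *Gcnt1* (0.209) and *Cacna2d2* (0.279), against a median of 1.34, and *Rgs16* to *Cybb* (0.296) and *Epb41l1* (0.307), against a median of 1.17. Distances grow with the range of a gene's own values, so they do not rank the RGS genes against each other.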

How the data were processed

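RNA was prepared with a stranded mRNA protocol, and the authors used snakePipes 2.1.0, with STAR 2.7.3a for alignment to mm10 and featureCounts 2.0.0 for counting. The annotation release and the strand setting are not given in the sources used here. The deposited values are raw counts per gene, in 1 table per stimulation with 4 libraries each. Of 47937 gene IDs, 47224 matched a symbol of GENCODE M21 (GRCm38), and 0.0847% of the counts lay on the others. Each table was fitted for the genotype comparisons, and all 8 libraries for the LPS responses and the interaction, with edgeR 4.0.16 (TMM, filterByExpr, glmQLFit, glmQLFTest, Benjamini-Hochberg) in R 4.3.3. SE is the log2 fold change, before edgeR's prior count, over the square root of F. CPM are TMM-scaled, and TPM use APPRIS principal transcript lengths. The scripts were tested on simulated counts. The alternatives were DESeq2 1.42.0, other scalings and filters, fixed coefficients of variation, a replicate block, all libraries in 1 fit, the 4 libraries of a genotype alone, and leaving out each library. With 2 libraries against 2, the smallest two-sided exact permutation p is 0.333, so none is given. The RGS genes and the lists were chosen with earlier results of these data known. Named besides the 9 genes are the GRKs, list genes called between genotypes at 0.8 or more on the log2 scale in either direction, and for each RGS gene the 2 most similar genes. *Gm42418*, *Cd163*, *Pf4*, *Itga2b*, *Lyz2*, *C1qa*, *C1qb*, *C1qc*, *Fcgr1*, *Gnaq*, *Gna13*, *Gnai2* and *Gnai3* were chosen after their values were seen.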

Additional observations from a re-analysis of the deposited data

Results flagged for a closer look

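The genotype difference of 5 RGS genes was not the same with and without LPS, by the interaction test over all 8 libraries. It was lower with LPS for *Rgs1* (-0.93), *Rgs12* (-0.95), *Rgs3* (-0.62) and *Rgs19* (-0.50) and higher for *Rgs14* (1.16), each on the log2 scale. Of all genes tested, 32.5% passed this test.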

How the results depend on the processing

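Of 43 tested results of RGS genes, 30 were called. All 43 kept their direction and their side of the threshold with RLE size factors and with a replicate block (5292, 5654, 7438, 6793 and 3884 genes called without LPS, with LPS, for LPS in WT, LPS in 3xGrk-/- and the interaction). Deviations of replicate 1 from the group mean correlated between groups at -0.011 to 0.025. Counting noise, which is independent between libraries, makes up much of these deviations. The values therefore cannot decide whether the replicate numbers pair the libraries. DESeq2 and leaving out a library ended the same 5 calls, namely *Rgs3* without LPS and in the interaction, *Rgs2* by genotype with LPS and by LPS in 3xGrk-/-, and *Rgs12* by LPS in WT. Testing without the filter ended both calls of *Rgs2*. DESeq2 called 3086 genes without LPS and 2643 in the interaction. With *Rgs16*, 2 genes were called higher without the filter or with all 8 libraries in 1 fit, both without and with LPS, but *Rgs16* passes the filter of that fit through the 3xGrk-/- libraries, where it is high, so its call there is no support. With a library left out the count of genes called higher ranged from 1 to 2 in both comparisons. Scaling by library size called 5 RGS genes lower without LPS, among 3525 genes called lower in all (2722 with TMM). It moved the median of all genes by -0.08 without and -0.09 with LPS, and by -0.21 and -0.22 for LPS in WT and 3xGrk-/-. The share of higher among all called genes went from 49.3% to 35.8% without LPS, from 49.0% to 31.1% for LPS in WT and from 50.5% to 30.2% for LPS in 3xGrk-/-.

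The common biological coefficient of variation was 0.0306 without LPS, 0.0573 with LPS and 0.0463 over all 8 libraries. With the coefficient set at 0.1, 8 of the 30 calls were lost: without LPS 2905 genes were called, with 0 RGS genes higher and 1 lower, and in the interaction 2161 genes, with 2 RGS genes lower. At 0.4, 26 calls were lost. Then 448 genes were called without LPS and 782 with LPS, with 0 RGS genes higher or lower. For LPS in WT 1110 genes were called, with 2 RGS genes lower, for LPS in 3xGrk-/- 850, with 0 higher and 1 lower, and in the interaction 72, with 0 higher and 0 lower.

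1 called value turned its sign: *Grk6* for LPS in WT, 0.20 (edgeR adjusted p = 0.0241), was -0.02 with library size scaling. The other values that turned were not called. With library size scaling these were *Rgs19* without LPS (-0.02) and *Rgs16* for LPS in WT (-0.16), and without the filter *Rgs14* without LPS (0). With a library left out the values that turned ranged from -0.07 to 0.04 for *Rgs14* and from -0.12 to 0 for *Gna15* without LPS, and for *Rgs16* from -0.58 to 0.55 by LPS in WT, from -0.75 to 0.19 by LPS in 3xGrk-/- and from -0.79 to 0.4 in the interaction, where *Gpsm2* ranged from -0.23 to 0.48 and *Rgs11* from -1.32 to 0.8. Causes were not tested. Few reads lie behind *Rgs16*, *Rgs11*, and *Rgs18* and *Rgs7bp* in LPS-stimulated 3xGrk-/- cells.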
